A study of Mus musculus with 60 samples.

Results

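The cell cycle and DNA replication genes of MSTN-null and wild-type mice are described here from embryo to young muscle. The list holds 40 genes, taken by gene symbol from the platform annotation, and 39 of them were measured among the 18193 genes named on the arrays. They comprise G1 and S phase cyclins and kinases, CDK inhibitors with E2f1, origin and helicase genes, DNA synthesis genes, and the genes of mitotic entry, spindle checkpoint and mitotic spindle. Ccnb1 was not analysed here. The 39 genes are covered by 94 probe sets. Each gene is represented by its brightest probe set over the 10 pools of a time point. That probe set differed between time points for 6 genes: Ccna2, Cdc45, Cdk6, E2f1, Kif11 and Rrm1. The mice were Mstn-null C57BL/6J animals, which lack myostatin, a secreted inhibitor of muscle growth, and wild-type C57BL/6J animals. Each of the 30 samples was an RNA pool of 3 animals, with 5 MSTN-null and 5 wild-type pools at each time point. The tissue was the whole embryo at 13.5 d.p.c. (days post coitum), then the hindquarters (17.5 d.p.c.) and last the pectoralis muscle of mice 35 days old (d35). RNA from pectoralis was isolated by another protocol than RNA from embryos and hindquarters, so age, tissue and isolation cannot be told apart between d35 and the earlier time points.

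A cell that divides passes through G1, copies its DNA in S phase, and separates the copies in mitosis. Cyclins switch on cyclin-dependent kinases (CDKs) at each step, CDK inhibitors hold them off, and E2F transcription factors switch on the genes of S phase. In developing muscle, myoblasts divide and then leave the cycle for good when they fuse into fibres, so nuclei inside a fibre do not copy their DNA. Myostatin is known to hold back the division of myoblasts in culture, partly through the inhibitor p21, the product of Cdkn1a.

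Values are log2 intensities after RMA (robust multi-array average), from 2 chips per pool, A and B. Array medians of chip A were 8.05 to 8.09 at 13.5 d.p.c., 7.78 to 7.86 at 17.5 d.p.c. and 6.88 to 6.94 at d35, so log2 levels were compared only within a time point. Muscle fibre markers had a median percentile of 45.1 to 56.3 at 13.5 d.p.c., 98.1 to 99.0 at 17.5 d.p.c. and over 99.9 at d35 (8 genes). Probe sets with the symbol Mstn numbered 0, so the genotypes rest on the labels. Wild-type replicate 1 at 17.5 d.p.c. stood apart on chip B, with a mean correlation of 0.949 to its group, against at least 0.980 for every other array of that chip. At d35 the lowest mean correlations were those of wild-type replicate 2, 0.9891 on chip A and 0.9918 on chip B. The other d35 arrays had at least 0.9934 and 0.9941.

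Between embryo and muscle most of these genes moved from near the top of the array towards its middle or below. The measure was the percentile of a probe set within its own array, that is, the share of probe sets on that chip at or below it. The probe set of a gene was the one brightest at 13.5 d.p.c. throughout, and this choice favours a fall from that time point. The background of all probe sets involves no such choice. From 13.5 d.p.c. to d35 the percentile fell for 35 of 39 genes, rose for 3 and did not pass the test for 1, at a limma adjusted p under 0.05. Of all 45037 probe sets, 38.3% fell and 48.3% rose in that step. The median change was -34.9 percentile points over the 39 genes and 1.16 over all probe sets. In no step was this background matched to the starting percentile of the genes. Their median at 13.5 d.p.c. was 93.2 to 94.2, which leaves little room to rise and much to fall. In bulk RNA, fewer dividing cells and less RNA per cell cannot be told apart, and a percentile depends on all other transcripts of the tissue. Markers of other cell types fell over the same step, by a median of 71 points for liver, 59.8 for cartilage, 58.6 for neuron and 39.8 for neural progenitor genes (5 of 5 each) and 28.2 for erythroid genes (4 of 4). Endothelial (5 of 5) and adipocyte genes (4 of 4) rose, by a median of 22.2 and 52 points. The part of this change of tissue in the fall of the cell cycle genes was not tested.

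**Figure D1:**
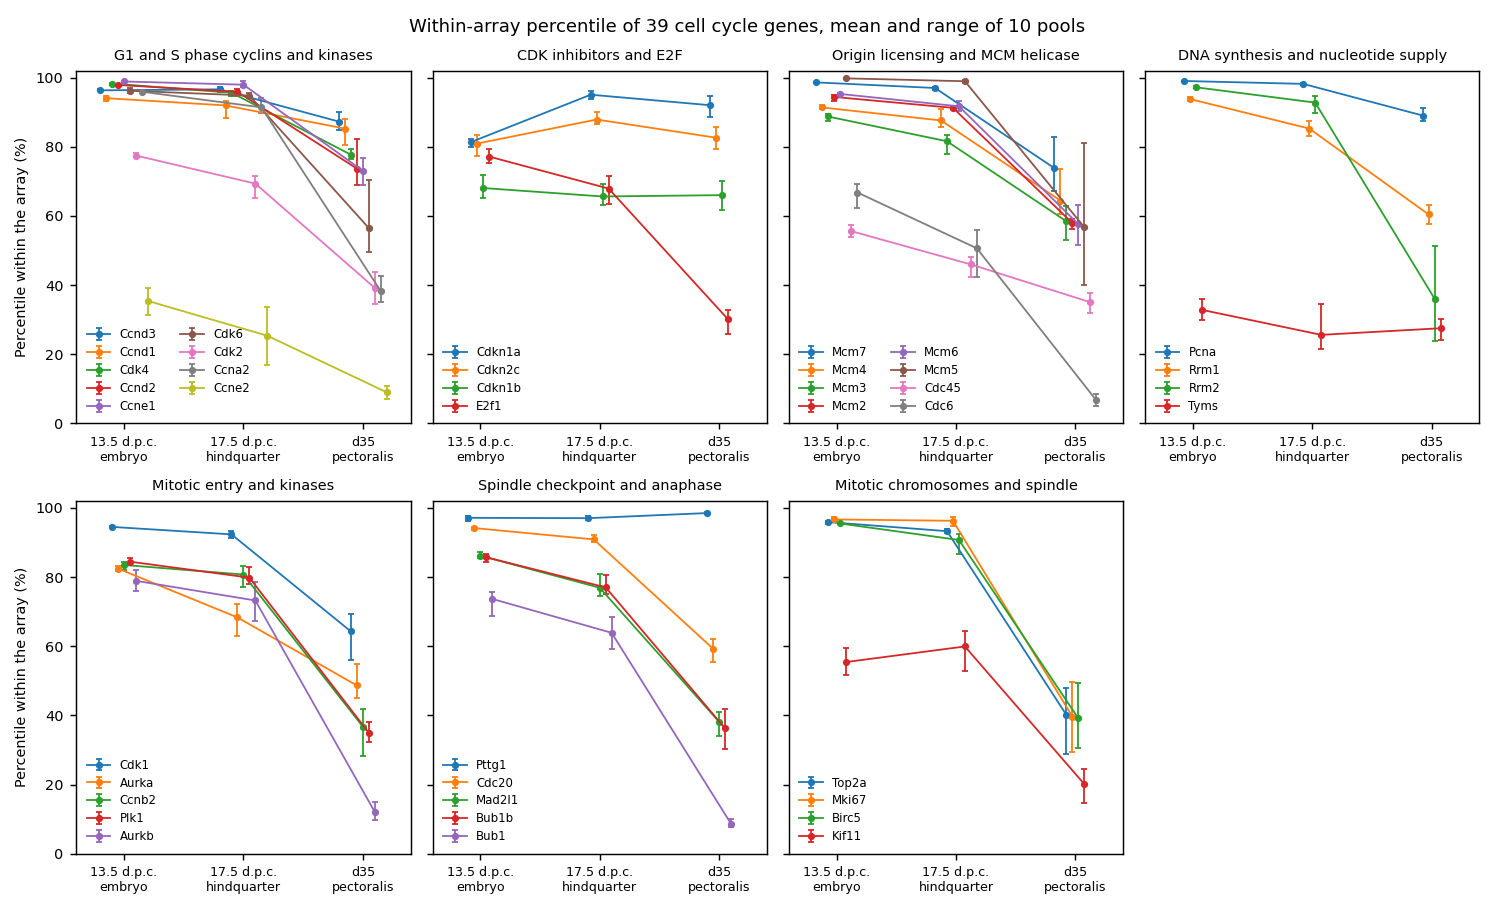
Within-array percentile (vertical axis, %) of 39 genes at the 3 time points (horizontal axis), in 7 panels by role. Points are means of 10 pools of both genotypes and bars span the lowest to the highest pool. Most lines drop further from 17.5 d.p.c. to d35 than before it. Cdkn1a climbs by 13.7 points to 17.5 d.p.c. and stays above its embryonic value.

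The drop came mostly after 17.5 d.p.c. From 13.5 to 17.5 d.p.c. 24 genes fell, 3 rose and 12 did not pass, with a median change of -3.27 points. In that step 36.6% of all probe sets fell and 35.1% rose. From 17.5 d.p.c. to d35 36 genes fell, 1 rose and 2 did not pass, with a median of -30.2 points, against 37.7% of all probe sets that fell and 47% that rose. The median percentile of the 39 genes was 93.2 to 94.2 in the 10 pools at 13.5 d.p.c., 88.1 to 91.0 at 17.5 d.p.c. and 46.7 to 57.6 at d35. No pool of a later time point reached the range of an earlier one.

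The fall was seen in both genotypes. From 13.5 d.p.c. to d35 the mean percentile was lower for 37 of 39 genes in MSTN-null pools and for 36 in wild-type pools, and for 36 in both. The median change was -34.4 points in MSTN-null and -35.8 points in wild-type pools. At d35 the median percentile of the genes was 55.5, 56.2, 53.8, 55.1 and 47.8 in the MSTN-null pools, against 57.3, 57.6, 54.0, 48.7 and 46.7 in the wild-type pools. The genotypes overlapped at all 3 time points, and the lowest MSTN-null pool at d35, replicate 5, lay inside the wild-type range.

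**Figure D2:**
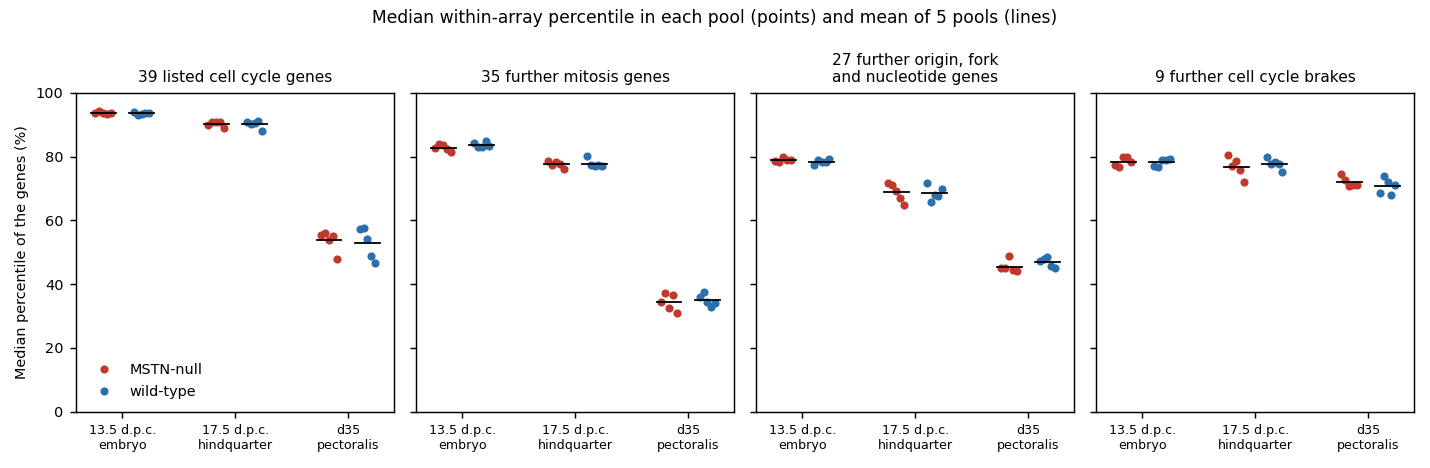
Median within-array percentile (vertical axis, %) of 4 gene lists in each pool at the 3 time points, MSTN-null in red left of wild-type in blue, with the mean of 5 pools as a line. The 39 listed genes sit at 46.7 to 57.6 at d35 in both genotypes, far under their 93.2 to 94.2 at 13.5 d.p.c.

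The largest median falls were those of mitotic genes. Of the genes of mitotic chromosomes and spindle all 4 fell, by a median of 56.1 points. Mki67, which codes for the proliferation marker Ki-67, had percentiles of 96.2 to 97.2 (median 96.6) at 13.5 d.p.c., 94.8 to 97.4 (median 96.4) at 17.5 d.p.c. and 29.3 to 49.7 (median 41.7) at d35. The change to 17.5 d.p.c. was -0.387 points and did not pass the test, and the change from there to d35 was -56.6 points. Top2a, a topoisomerase that untangles DNA before mitosis, and Birc5 (survivin, a subunit of the chromosomal passenger complex) fell by 55.8 and 56.4 points to d35. Kif11, the motor protein that pushes spindle poles apart, rose by 4.54 points to 17.5 d.p.c. and then fell by 39.8 points. A second Kif11 probe set did not share the rise. It averaged 8.23 in MSTN-null and 8.30 in wild-type embryos, above the chip A medians of 8.05 to 8.09. At 17.5 d.p.c. it averaged 7.75 and 7.79, against medians of 7.78 to 7.86. The last one averaged 7.79 and 7.90, then 7.52 and 7.56, under the medians both times.

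All 5 measured genes of mitotic entry fell between embryo and muscle, by a median of 46.7 points. Aurkb, the kinase of the chromosomal passenger complex, changed most of all 39 genes. Its percentile was 76.0 to 82.0 (median 78.6) at 13.5 d.p.c., 67.3 to 78.5 (median 72.6) at 17.5 d.p.c. and 9.75 to 15.0 (median 11.9) at d35. The fall of 66.8 points (SE 0.959, limma adjusted p = 1.27e-28) left no overlap between d35 and the earlier pools. No detection call was used here, so whether the genes lowest at d35 still stood above background there is not known, and this bears on the size of their falls. These were Cdc6, Bub1, Ccne2 and Aurkb, at mean percentiles of 6.68, 8.63, 8.99 and 12.1. Cdk1, the kinase that starts mitosis, fell by 30.2 points, its partner Ccnb2 by 46.7, Plk1, a kinase of mitotic entry, by 49.5 and the centrosome kinase Aurka by 33.8. For Aurka 14.1 of those points were lost before 17.5 d.p.c.

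Of the genes of the spindle checkpoint and anaphase 4 fell and 1 rose. Bub1, a checkpoint kinase at the kinetochore, had percentiles of 68.9 to 75.8 (median 74.0) at 13.5 d.p.c., 59.3 to 68.5 (median 62.8) at 17.5 d.p.c. and 7.62 to 10.2 (median 8.47) at d35. It fell by 65.0 points (SE 1.02, limma adjusted p = 9.18e-28). Bub1b and Mad2l1, which delay anaphase together, fell by 49.5 and 48.0 points, and Cdc20, which activates the anaphase-promoting complex, by 34.9. Pttg1 codes for securin, which keeps separase off until anaphase, and it went the other way. Its percentile was 96.3 to 97.8 (median 97.1) at 13.5 d.p.c., 96.4 to 97.6 (median 96.9) at 17.5 d.p.c. and 98.1 to 98.7 (median 98.6) at d35, a rise of 1.38 points (SE 0.217, limma adjusted p = 1.76e-06).

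Genes of origin licensing and the MCM helicase, the ring that unwinds DNA at the fork, all fell (8 of 8), by a median of 33.4 points. Cdc6 loads the helicase onto origins. Its percentile was 62.4 to 69.2 (median 67.2) at 13.5 d.p.c., 42.2 to 56.0 (median 52.1) at 17.5 d.p.c. and 4.92 to 8.56 (median 6.85) at d35, a fall of 60.1 points (SE 1.38, limma adjusted p = 3.47e-24). The 6 helicase subunits Mcm2 to Mcm7 fell by 24.8 points (Mcm7) to 43.1 points (Mcm5). Mcm5 varied widely at d35, with percentiles of 40 to 81.1 over 10 pools, against 99.6 to 99.8 at 13.5 d.p.c. The highest d35 value was that of wild-type replicate 2. Cdc45, which turns the helicase on, fell by 20.5 points by its chip A probe set. Its other probe set, on chip B, averaged 8.30 in MSTN-null and 8.31 in wild-type pools at 13.5 d.p.c. At d35 it averaged 7.78 and 7.64. Array medians of that chip were 7.04 to 7.1 and 6.16 to 6.2, so this probe set stayed above the median.

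Of the genes of DNA synthesis and nucleotide supply all 4 fell, but unevenly. Rrm2 is the small subunit of ribonucleotide reductase, whose supply is tied to S phase. Its percentile was 96.9 to 97.6 (median 97.2) at 13.5 d.p.c., 89.8 to 94.6 (median 92.8) at 17.5 d.p.c. and 23.8 to 51.3 (median 36.5) at d35, a fall of 61.2 points (SE 2.12, limma adjusted p = 3.98e-20). The large subunit, Rrm1, fell by 33.4 points. Pcna, the sliding clamp of DNA polymerase, fell by 9.98 points and was still at 87.5 to 91.2 at d35. Tyms, thymidylate synthase, was at 30 to 35.9 in the embryo and 24.2 to 30.1 at d35, and changed by -5.33 points (SE 1.12, limma adjusted p = 9.23e-05). Between 17.5 d.p.c. and d35 its change was 1.91 points and did not pass the test. All 4 probe sets of Tyms averaged under the array medians in the embryo already. Whether they stood above background at any time point is not known, which bears on the size of this change.

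All 9 cyclins and kinases of G1 and S phase fell, by a median of 25.8 points. Ccna2, the cyclin of S phase and G2, had percentiles of 95.7 to 96.2 (median 95.8) at 13.5 d.p.c., 89.6 to 94.0 (median 90.9) at 17.5 d.p.c. and 35.1 to 42.6 (median 37.6) at d35, a fall of 57.7 points (SE 0.618, limma adjusted p = 2.91e-31). The D-type cyclins, which link growth signals to CDK4 and CDK6, changed less. Ccnd1 fell by 8.80 points, Ccnd3 by 9.05 and Ccnd2 by 24.2. Their kinases Cdk4 and Cdk6 fell by 20.6 and 39.7 points, and Cdk2 with its E-type cyclins Ccne1 and Ccne2 by 38.3, 25.8 and 26.4 points.

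The CDK inhibitors rose or stayed near their embryonic percentile. Cdkn1a (p21) had percentiles of 80 to 82.2 (median 81.5) at 13.5 d.p.c., 93.7 to 96.1 (median 95.2) at 17.5 d.p.c. and 88.5 to 94.8 (median 92.3) at d35. It rose by 10.6 points from embryo to muscle (SE 0.526, limma adjusted p = 1.32e-16), the highest rise among the 39 genes. Cdkn2c (p18), an inhibitor of CDK4 and CDK6, rose by 6.94 points to 17.5 d.p.c., fell by 5.26 to d35 and ended 1.68 points above the embryo (SE 0.704, limma adjusted p = 0.0293). Cdkn1b (p27) stayed within 61.8 to 71.8 in all 30 pools, and its change of -2.05 points (SE 0.984, limma adjusted p = 0.055) did not pass. E2f1, the transcription factor of the S phase genes, fell by 47.1 points. Its chip B probe set averaged 7.31 in MSTN-null and 7.36 in wild-type embryos, and 6.44 and 6.37 at d35. That stayed above the array medians of chip B, 7.04 to 7.1 and 6.16 to 6.2. The last E2f1 probe set, on chip A, averaged 7.09 and 7.18 in embryos and 5.05 and 5.04 at d35, under the medians of that chip.

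Further cell cycle genes, not on the list of 40, were read in the same way. From 13.5 d.p.c. to d35 35 of 35 other mitosis genes fell, by a median of 46.2 points, and 27 of 27 other origin, fork and nucleotide genes, by a median of 33.4. Of 13 E2F, RB and MuvB factors 11 fell and 2 rose. Of 9 further brakes on the cycle 4 fell, 3 rose and 2 did not pass.

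Since these genes moved together, their promoters are shown. RefSeq windows of 300 bases in build GRCm38.p6, from 250 before to 50 after a start site, were at hand for 34 of the 40 genes, Ccnb1 included. Aurkb, Ccna2, Ccnd1, Ccnd2, Ccne2 and Mcm4 had none. Windows were searched on both strands for 3 kinds of word: the E2F words TTTCCCGC, TTTGGCGC, TTTGCCGC and TTTCGCGC, the CHR word TTTGAA (cell cycle genes homology region, which the MuvB complex binds in genes of late cycle), and CCAAT, bound by NF-Y. An E2F word was present in 5 of 7 origin and helicase genes, in 7 of 34 genes of the list and in 2.6% of the 27025 genes of the table. The CHR word was present in 4 of 5 genes of mitotic entry, 3 of 4 of mitotic chromosomes and spindle, 11 of 34 genes of the list and 20.2% of all genes. CCAAT was present in 24 of 34 genes of the list and 41.1% of all genes. A gene counted once if any of its windows held the word. A match says only that these letters are in the window.

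Below, all matches are in capitals. Mcm5 (chr8:75109259-75109558, plus strand) and Mcm6 (chr1:128359656-128359955, minus strand) stand for the helicase genes and carry E2F words, which overlap on opposite strands at positions -153 and -149 from the start of Mcm5 and -110 and -106 from that of Mcm6. Cdk1 (chr10:69352863-69353162, minus strand) carries all 3 kinds. Cdc20 (chr4:118437294-118437593, minus strand) and Ccnb2 (chr9:70421505-70421804, minus strand) stand for mitosis and carry CHR and CCAAT words only. Pttg1 (chr11:43425932-43426231, minus strand), the one gene of the list called between genotypes, carries none of these words in its window. That window lies wholly inside the annotated gene (chr11:43420244-43427463), so the sequence before its outer start was not searched. For 5 of the 34 genes every window lay inside the gene, while the other 5 windows shown span the outer 5′ end.
Mcm5: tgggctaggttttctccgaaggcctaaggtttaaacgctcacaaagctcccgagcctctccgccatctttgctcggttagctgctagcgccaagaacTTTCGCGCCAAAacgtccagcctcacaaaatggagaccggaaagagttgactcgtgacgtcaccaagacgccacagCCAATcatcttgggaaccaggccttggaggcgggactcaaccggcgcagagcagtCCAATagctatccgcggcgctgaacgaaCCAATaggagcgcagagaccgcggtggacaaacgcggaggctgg
Mcm6: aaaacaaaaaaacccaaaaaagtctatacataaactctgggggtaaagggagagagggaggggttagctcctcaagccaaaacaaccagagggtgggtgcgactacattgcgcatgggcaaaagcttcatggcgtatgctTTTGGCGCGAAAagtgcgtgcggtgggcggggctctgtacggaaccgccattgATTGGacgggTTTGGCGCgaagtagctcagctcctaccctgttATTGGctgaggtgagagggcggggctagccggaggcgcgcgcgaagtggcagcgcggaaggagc
Cdk1: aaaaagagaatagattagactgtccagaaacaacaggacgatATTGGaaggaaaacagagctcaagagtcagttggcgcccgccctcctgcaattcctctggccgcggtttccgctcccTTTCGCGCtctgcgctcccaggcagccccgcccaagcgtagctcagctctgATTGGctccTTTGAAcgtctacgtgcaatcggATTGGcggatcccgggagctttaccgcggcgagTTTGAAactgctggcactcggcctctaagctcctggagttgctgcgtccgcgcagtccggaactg
Cdc20: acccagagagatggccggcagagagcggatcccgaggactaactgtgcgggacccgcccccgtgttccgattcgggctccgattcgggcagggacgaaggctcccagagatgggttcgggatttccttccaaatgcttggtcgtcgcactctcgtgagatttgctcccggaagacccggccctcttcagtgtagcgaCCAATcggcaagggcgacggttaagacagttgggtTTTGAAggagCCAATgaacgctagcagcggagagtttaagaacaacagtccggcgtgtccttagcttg
Ccnb2: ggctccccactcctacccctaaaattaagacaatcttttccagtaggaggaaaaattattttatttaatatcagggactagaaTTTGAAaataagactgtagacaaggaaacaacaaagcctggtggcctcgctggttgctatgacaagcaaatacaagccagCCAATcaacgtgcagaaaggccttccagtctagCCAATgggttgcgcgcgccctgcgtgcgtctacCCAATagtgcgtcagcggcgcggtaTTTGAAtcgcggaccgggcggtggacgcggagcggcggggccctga
Pttg1: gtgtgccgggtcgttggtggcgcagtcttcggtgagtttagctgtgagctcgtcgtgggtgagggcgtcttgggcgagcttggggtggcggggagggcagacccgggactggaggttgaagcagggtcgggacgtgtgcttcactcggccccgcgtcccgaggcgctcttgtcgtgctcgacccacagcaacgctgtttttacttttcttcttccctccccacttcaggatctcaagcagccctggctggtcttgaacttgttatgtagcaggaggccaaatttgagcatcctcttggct

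Genotypes were compared within each time point as MSTN-null minus wild-type, so a positive difference is higher in MSTN-null. The study's own contrast ran the other way. At 13.5 d.p.c. 1 of 39 genes was called at a Storey q under 0.05, Pttg1, which was higher in MSTN-null embryos. Of all probe sets 0.0266% were called higher and 0.513% lower in MSTN-null. No gene of the list was called lower by its brightest probe set (0 of 39), with 6 of 39 at an unadjusted limma p under 0.05, against 5071 of 45037 probe sets. The differences of the 39 genes ran from -0.13 to 0.29 log2, with 22 above and 17 below 0 and a median of 0.011, against -0.00052 over all probe sets.

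Pttg1 had log2 values of 11.81, 11.80, 11.90, 11.89 and 11.63 in the MSTN-null embryo pools, against 11.65, 11.46, 11.63, 11.40 and 11.42 in the wild-type pools. In 4 MSTN-null pools the value lay above every wild-type pool, and replicate 5 lay within the wild-type range. The means were 11.80 ± 0.107 and 11.51 ± 0.119 (SD, n = 5 each), a difference of 0.29 (SE 0.0615, limma q = 0.0427), or 1.23-fold. A second probe set of Pttg1 differed by 0.25 (limma q = 0.201) and the last by 0.042 (limma q = 0.559). The call was lost whichever of the 10 pools was left out, with differences of 0.26 to 0.34 and q-values of 0.0524 to 0.118. The actin control ran higher in MSTN-null too. Its 3′ minus 5′ signal on chip A was 0.201 to 0.346 log2 in MSTN-null and 0.0677 to 0.214 in wild-type pools, with overlap. On chip B it was 0.29 to 0.318 and 0.16 to 0.234, without overlap. The Gapdh control overlapped on both chips, at 0.213 to 0.321 and 0.0598 to 0.289 on A, and 0.235 to 0.298 and 0.226 to 0.267 on B. The part of these signals in the result was not tested. Markers of cell types in embryos gave no call by genotype. Higher in MSTN-null were 5 of 5 liver, macrophage and cartilage genes, 4 of 4 T cell and 6 of 8 muscle fibre genes. Higher too were 3 of 4 erythroid, B cell and adipocyte genes. Lower were 4 of 5 neural progenitor, neuron and endothelial genes and 3 of 5 myogenic progenitor genes. Fibroblast genes were split, 3 against 3. The part of these markers was not tested.

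**Figure D3:**
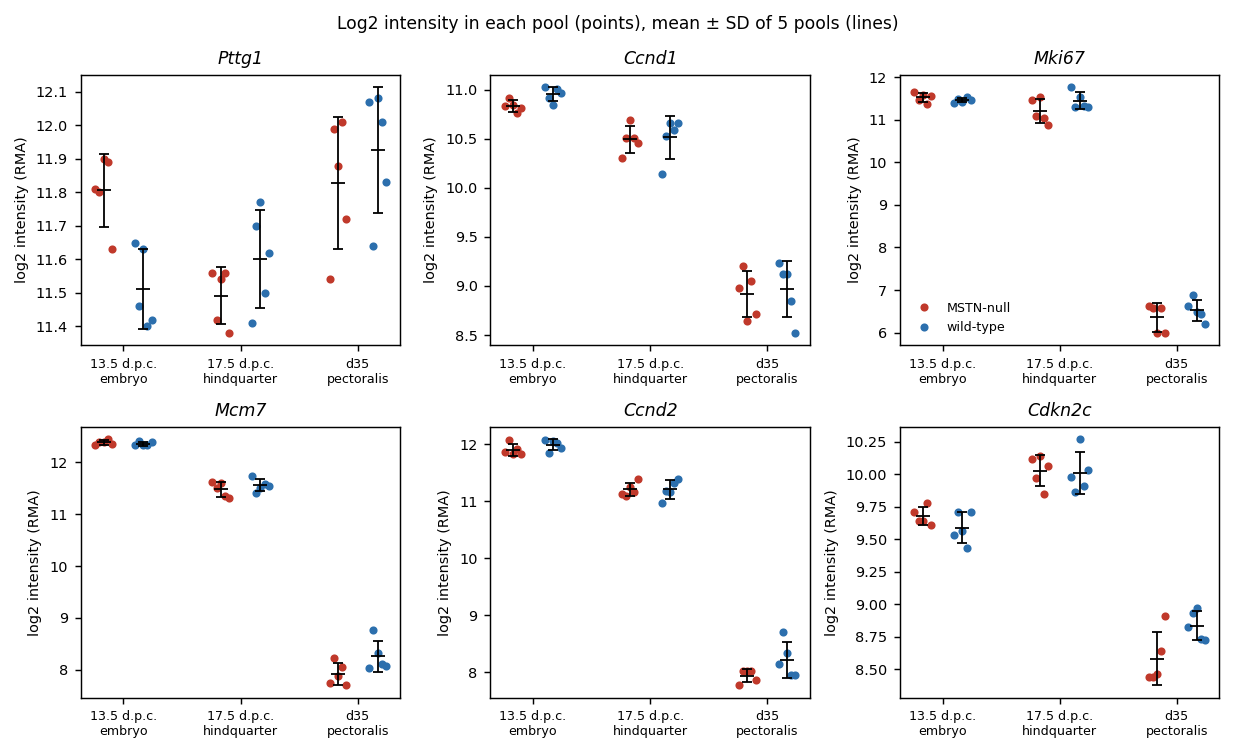
RMA log2 intensity (vertical axes, which do not start at 0) of 6 genes in each pool at the 3 time points, MSTN-null in red left of wild-type in blue. Black lines give the mean ± SD of 5 pools. Only Pttg1 at 13.5 d.p.c. was called between genotypes, and 1 MSTN-null pool there, at 11.63, lies within the wild-type range of 11.40 to 11.65.

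By their brightest probe sets, the other genes at 13.5 d.p.c. differed by less than Pttg1. Mcm5 had log2 values of 11.28, 11.43, 11.34, 11.27 and 11.33 in MSTN-null pools, against 11.13, 11.17, 10.93, 11.23 and 11.32 in wild-type pools. The difference was 0.17 (SE 0.0606, limma q = 0.217), with wild-type replicate 5 inside the MSTN-null range. The other probe sets of Mcm5 lay on the other side of 0, at -0.063 and -0.017. Kif11 had 8.28, 8.39, 8.17, 8.25 and 8.18 in MSTN-null pools, against 8.51, 8.17, 8.46, 8.44 and 8.32 in wild-type pools, a difference of -0.13 (SE 0.0624, limma q = 0.356) with groups that overlap. In 2 genes every MSTN-null pool lay above every wild-type pool, Aurkb (9.51 to 9.68 against 9.35 to 9.49, q = 0.228 by limma) and Ccne1 (10.35 to 10.46 against 10.25 to 10.34, limma q = 0.242). In no gene of the list (0) did every MSTN-null pool lie below, while over all probe sets 0.735% lay wholly above and 1.66% wholly below.

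Ccnd1 was called by a dimmer probe set alone, named here after its values were seen. That probe set had log2 values of 9.22, 9.17, 9.02, 9.03 and 9.02 in MSTN-null embryos, against 9.44, 9.35, 9.36, 9.38 and 9.22 in wild-type embryos. The groups touch at 9.22 and do not cross. The difference was -0.26 (SE 0.0519, limma q = 0.0364). The other probe sets of this cyclin differed by -0.14 (limma q = 0.191) and, for the brightest, by -0.12 (limma q = 0.24). At 17.5 d.p.c. the same dimmer probe set differed by 0.030 and at d35 by -0.0043. Ccnd2 was lower in MSTN-null embryos by all 7 probe sets, and none was called. The brightest differed by -0.083 (limma q = 0.468). The widest of the dimmer ones, also named after their values were seen, were at -0.50 (limma q = 0.0932) and -0.45 (limma q = 0.0872), with overlap.

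Cdkn1a, which myostatin is known to raise in cultured myoblasts, did not differ detectably by its brightest probe set. In embryos it averaged 9.66 ± 0.0324 in MSTN-null and 9.66 ± 0.0479 in wild-type pools, with a 95% interval of the difference of -0.084 to 0.077 log2. At 17.5 d.p.c. the difference was 0.029 and at d35 -0.022, with SEs of 0.0949 and 0.132. The other Cdkn1a probe set was higher in MSTN-null at each time point and was not called. It differed by 0.10 in embryos (limma q = 0.293), 0.095 at 17.5 d.p.c. and 0.10 at d35 (limma q = 0.412).

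**Figure D4:**
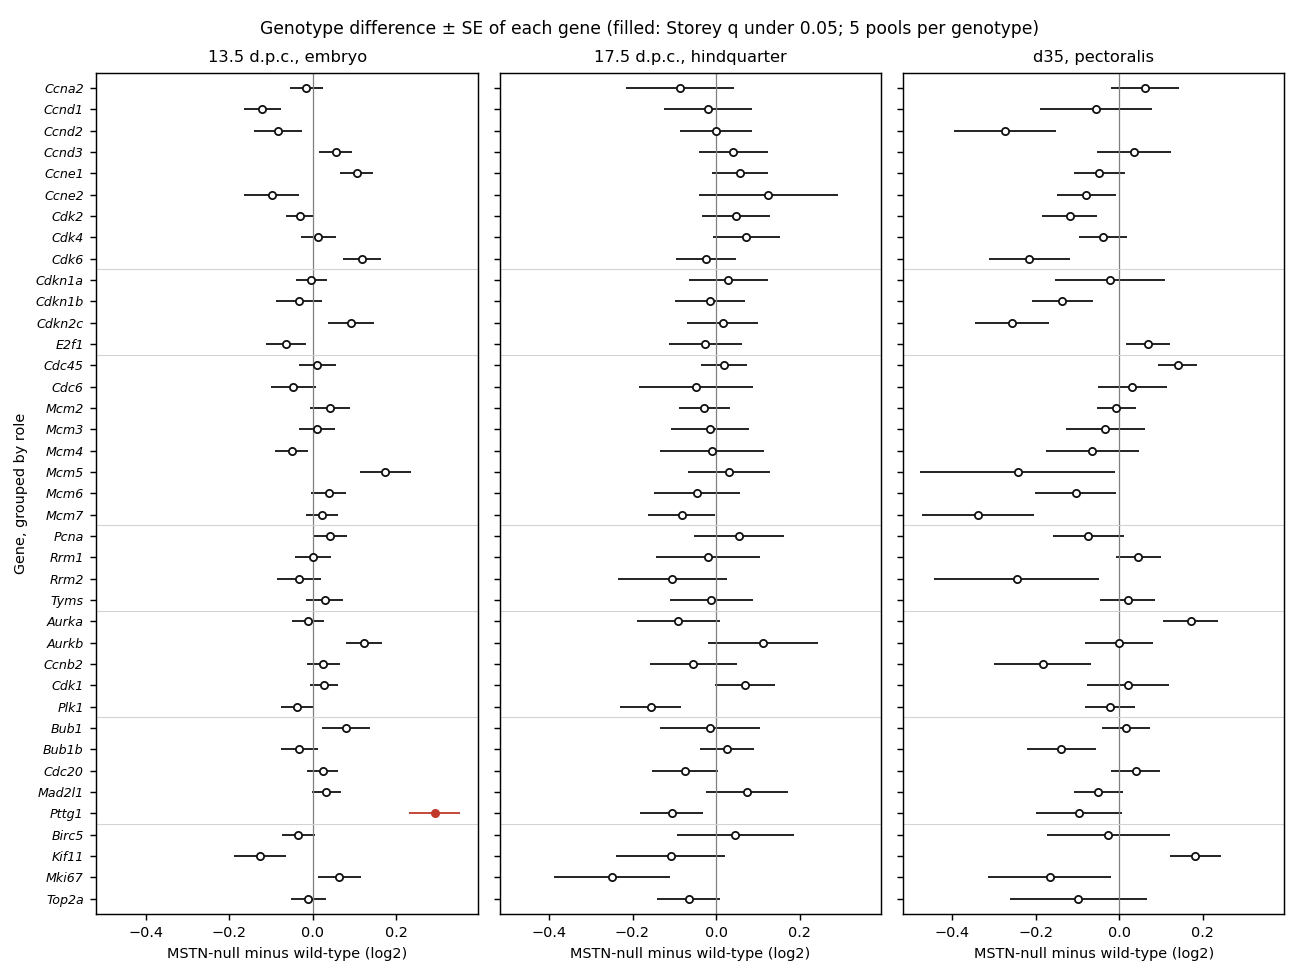
Difference MSTN-null minus wild-type (horizontal axis, log2) of each of 39 genes at the 3 time points, with its SE as a bar and genes grouped by role down the page. The filled red point is the one called, Pttg1 at 13.5 d.p.c. (0.29). Bars are wider at 17.5 d.p.c. and d35 than at 13.5 d.p.c. for most genes.

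At 17.5 d.p.c. no gene of the list was called (0 of 39), and 0 of 39 had an unadjusted limma p under 0.05. Over all probe sets 0% were called higher and 0% lower, and 1093 had such a p. Differences ran from -0.25 to 0.13, with 15 above and 24 below 0. The widest was in Mki67, with log2 values of 11.45, 11.09, 11.54, 11.03 and 10.88 in MSTN-null hindquarters, against 11.77, 11.30, 11.52, 11.33 and 11.30 in wild-type hindquarters. It came to -0.25 (SE 0.139, limma q = 1), and 3 MSTN-null pools lay below all wild-type pools. Plk1 differed by -0.16 (SE 0.073, limma q = 1), with 9.35, 9.33, 9.29, 9.16 and 9.36 against 9.68, 9.32, 9.38, 9.48 and 9.41 in wild-type. Without wild-type replicate 1 this came to -0.0996. Ccne2 differed by 0.13 (SE 0.167, limma q = 1), and by 0.030 to 0.24 when single pools were left out, the lowest without wild-type replicate 2.

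No gene of the list was free of overlap at 17.5 d.p.c. (0 of 39), against 0.204% of all probe sets wholly above and 0.331% wholly below. A dimmer probe set of Cdk6 did lie wholly below, at 6.12 to 6.29 in MSTN-null and 6.33 to 6.52 in wild-type pools, a difference of -0.23 with limma q = 1, and the brightest differed by -0.024. It was picked after its values were seen. The differences of all 5 liver markers in the hindquarter RNA were below 0, with 0 of 5 called and 1 at an unadjusted limma p under 0.05. Their median percentile was 70.8 to 99.5 in MSTN-null and 98.5 to 99.9 in wild-type pools. The groups thus overlapped, with the wider spread in MSTN-null. Whether these differences rest on single pools was not tested. The part of the liver markers in the values of the cell cycle genes was not tested either. With further quantile normalization the split was 19 above and 20 below 0, and leaving out single pools moved the count above 0 between 12 and 21.

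At d35 no gene of the list was called either (0 of 39), while 2.08% of all probe sets were called higher and 2.5% lower. An unadjusted limma p under 0.05 was reached by 7 of 39 genes and by 8061 of 45037 probe sets. Differences ran from -0.34 to 0.18, with 12 above and 27 below 0 and a median of -0.048, against a median of 0.014 over all probe sets, 56% of which were above 0. Leaving out single pools moved the count above 0 between 10 and 17.

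Mcm7, a helicase subunit, differed most at d35. Its log2 values were 7.75, 8.22, 7.88, 8.05 and 7.70 in MSTN-null muscle, against 8.03, 8.76, 8.32, 8.11 and 8.07 in wild-type muscle. In 3 MSTN-null pools it lay below all wild-type pools, and in 2 it lay among them. The difference was -0.34 (SE 0.134, limma q = 0.131), and it passed the threshold with all 30 pools in a single fit (limma q = 0.0432). Without wild-type replicate 2, the highest pool, it came to -0.21. The 3 other probe sets of Mcm7 differed by -0.25 to -0.072.

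Ccnd2 and Cdkn2c followed. Ccnd2 had log2 values of 7.77, 8.03, 8.03, 8.02 and 7.86 in MSTN-null muscle, against 8.14, 8.70, 8.33, 7.95 and 7.96 in wild-type muscle, a difference of -0.27 (SE 0.122, limma q = 0.168). Its groups overlap, with 2 wild-type pools at 7.95 and 7.96, and without wild-type replicate 2 the difference was -0.15. Of the other Ccnd2 probe sets 4 were lower too, the widest at -0.42 (limma q = 0.125). The rest were higher, at 0.042 and 0.083. Cdkn2c had 8.44, 8.44, 8.46, 8.64 and 8.91 in MSTN-null muscle, against 8.82, 8.93, 8.97, 8.73 and 8.72 in wild-type muscle, a difference of -0.26 (SE 0.0895, limma q = 0.0947). Of the MSTN-null pools only replicate 5, at 8.91, lay inside the wild-type range. Without that pool Cdkn2c differed by -0.34 (limma q = 0.016), and 2 genes of the list were called, Cdkn2c and Kif11.

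In the other direction at d35 stood Kif11, Aurka and Cdc45. Kif11 differed by 0.18 and Aurka by 0.17, both with overlap. The probe set of Kif11 used in embryos differed by -0.030 at d35, and its last one by 0.046. Cdc45 had log2 values of 7.76, 7.77, 7.74, 7.78 and 7.83 in MSTN-null muscle, against 7.74, 7.59, 7.61, 7.65 and 7.60 in wild-type muscle. Its groups meet at 7.74 without crossing, its difference was 0.14, and it was the only gene of the list free of overlap at d35, against 2.77% of all probe sets wholly above and 2.48% wholly below. The other probe set of Cdc45 overlapped and differed by 0.00014 (limma q = 0.643). Markers of some other cells were lower in MSTN-null muscle: 4 of 4 measured adipocyte genes (1 called), 5 of 5 endothelial genes (3 called), 5 of 5 macrophage genes and 4 of 4 T cell genes (0 called). Of the B cell genes 3 of 4 were lower (0 called). Other lists went the other way: 8 of 8 muscle fibre genes were higher (1 called). So were 4 of 5 cartilage, 4 of 5 neuron, 4 of 5 neural progenitor and 3 of 4 erythroid genes (0 called). The median percentile of the adipocyte genes was 65.6 to 82.4 in MSTN-null and 81.2 to 86.6 in wild-type pools, of the endothelial genes 67.3 to 75.5 and 75.1 to 79.4, and of the macrophage genes 69.3 to 75.2 and 75.6 to 82.1. For B cell genes it was 31.85 to 48.91 in MSTN-null and 31.71 to 77.19 in wild-type pools. For T cell genes it was 68.33 to 76.2 and 70.94 to 79.11, in the same order. Both lists thus overlapped between genotypes, with the widest spread in the B cell genes of wild-type pools. The part of these markers in the values of the cell cycle genes was not tested.

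By role, the remaining genes gave no call at any time point. The 9 cyclins and kinases of G1 and S phase had median differences of -0.015 log2 in embryos, 0.042 in hindquarters and -0.056 in muscle, with 4, 5 and 2 of them above 0. Cdk6 differed by 0.12 in embryos and, by another probe set, -0.22 in muscle, both with overlapping groups. The 8 origin and helicase genes had medians of 0.017, -0.021 and -0.049 in the same order, with 6, 2 and 2 above 0. Mcm5, 0.17 in the embryo, differed by -0.24 at d35 with an SE of 0.233. Its muscle pools ran over 5.79 to 6.51 in MSTN-null and 5.98 to 7.39 in wild-type. Of the genes of DNA synthesis, Pcna differed by 0.041, 0.055 and -0.074, and Rrm2 by -0.033, -0.10 and -0.25, the last with an SE of 0.197. Rrm1 differed by 0.00078 in embryos and, by another probe set, by -0.019 in hindquarters and 0.046 in muscle. The 5 genes of mitotic entry had medians of 0.025, -0.055 and -0.0013, and the 4 of mitotic chromosomes and spindle -0.022, -0.087 and -0.062. E2f1 differed by -0.064, -0.026 and 0.069, the last by another probe set, and Cdkn1b by -0.033, -0.014 and -0.14.

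Whether a genotype difference itself changed between time points was tested in 1 fit of all 30 pools. No gene of the list passed in any of the 3 pairs (0 of 39), while of all probe sets 0% passed for 17.5 against 13.5 d.p.c., 0.715% for d35 against 17.5 d.p.c. and 1.17% for d35 against 13.5 d.p.c. The lowest q-value was that of Pttg1 for d35 against 13.5 d.p.c., with a change of the difference of -0.39 (SE 0.126, limma q = 0.125). Cdkn2c was next, at -0.35 (SE 0.118, limma q = 0.147), and 1 gene of the list passed when MSTN-null replicate 5 of d35 was left out. Pttg1 differed by 0.29 at 13.5 d.p.c., -0.11 at 17.5 d.p.c. and -0.097 at d35, but its higher value in MSTN-null embryos was not shown to differ from the later time points.

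Among the 84 further cell cycle genes measured, 4 were called at d35, 2 higher and 2 lower in MSTN-null, and 0 at each earlier time point. This is near the background of 4.58% of all probe sets called at d35, and is read as no result about this set of genes. Gadd45a, a stress-induced gene of growth arrest, had log2 values of 7.57, 7.98, 7.60, 7.86 and 7.69 in MSTN-null muscle, against 7.34, 6.81, 7.02, 7.35 and 7.43 in wild-type muscle, a difference of 0.55 (SE 0.116, limma q = 0.0144). Ccng2, an unconventional cyclin linked to arrest, had 7.5, 7.71, 7.26, 7.55 and 7.68 in MSTN-null muscle, against 7.77, 8.11, 7.96, 7.79 and 7.88 in wild-type muscle, a difference of -0.36 (SE 0.0873, limma q = 0.0279). The groups of both genes were apart, in opposite directions. Gmnn (geminin, which blocks repeated origin licensing) was at 5.75 to 5.93 in MSTN-null and 5.97 to 6.18 in wild-type pools, a difference of -0.27 (SE 0.0544, limma q = 0.0115). Zwint, a kinetochore protein, was at 9.18 to 9.47 in MSTN-null and 8.99 to 9.13 in wild-type pools, a difference of 0.25 (SE 0.0596, limma q = 0.0272).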

How the data were processed

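RNA pools were hybridized to both chips of the Affymetrix MOE430 set, 60 arrays in all. The deposited values are log2 intensities that the authors obtained by RMA with affy, a package for R whose version is not given in the sources used here. After removal of 64 control probe sets per chip and of the chip B copy of 100 shared ones, 45037 remained, of which 34945 carry a single gene symbol in the platform annotation. No pair of arrays was identical (0 pairs).

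Genotypes were compared within a time point by limma 3.58.1 in R 4.3.3 (lmFit and eBayes, genotype as the only term), with Storey q-values over all probe sets (lambda from 0.05 to 0.95 in steps of 0.05) and a threshold of 0.05. The 5 pools per group hold separate animals, and their spread and number limit the precision of each value. Percentiles within an array were compared between time points by limma over all 30 pools, averaged over genotypes, with Benjamini-Hochberg adjusted p-values and the probe set brightest at 13.5 d.p.c. Percentiles of chips A and B are separate scales. Scripts were tested on simulated data. Figures were drawn in Python 3.11.15 with matplotlib 3.10.9.

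Full statistics are given for genes called at a time point, those among the 3 largest differences there, and the 5 largest and 5 smallest falls in percentile. The 40 genes, the further lists and the rules were chosen with earlier results of these data known. Alternatives covered the p-value adjustment, chips, dim probe sets, normalization, variance moderation, a single fit, replicate blocks, probe set choice, the rank scale and each pool left out.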

Additional observations from a re-analysis of the deposited data

Results flagged for a closer look

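A pool far from the other 4 of its group, by Dixon's test at the 95% level, was seen in 13 of 234 groups of gene, genotype and time point (5.56%). Chance gives about 1 in 20 groups, so these are values to look at and no more. All are log2 intensities of the gene's brightest probe set. At 17.5 d.p.c. 5 of them fell on one pool, wild-type replicate 1, whose chip B array also stood apart from its group. There it had 10.14 for Ccnd1 (others 10.53 to 10.66), 11.64 for Ccnd3 (others 11.25 to 11.36), 9.34 for Cdk6 (others 9.55 to 9.62), 10.98 for Rrm2 (others 10.54 to 10.66) and 6.37 for Tyms (others 5.79 to 5.95). It was thus low in 2 of these genes and high in 3. Without that pool no gene of the list was called at 17.5 d.p.c. (0 of 39).

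At 13.5 d.p.c. MSTN-null replicate 1 had 8.64 for Cdc6 (others 8.87 to 8.92), MSTN-null replicate 4 had 12.72 for Pcna (others 12.77 to 12.79) and MSTN-null replicate 3 had 6.51 for Tyms (others 6.37 to 6.39). In wild-type embryos replicate 2 had 10.77 for Mcm2 (others 10.97 to 11) and replicate 1 had 9.35 for Aurkb (others 9.47 to 9.49). At 17.5 d.p.c. MSTN-null replicate 4 had 8.46 for Cdc45 (others 8.29 to 8.33). At d35 MSTN-null replicate 5 had 5.79 for Mcm5 (others 6.32 to 6.51), and wild-type replicate 4 had 6.10 for Ccnb2 (others 6.45 to 6.53).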

How the results depend on the processing

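Of 365 values recomputed under alternatives, 332 kept their direction and their side of the threshold or stayed within 1.5 times, and 0 changed sign. Many of these values are counts, which cannot change sign. Settings that alter only the q-value also leave a difference as it was. At 13.5 d.p.c. the count of genes called was 1, and it was 0 with Benjamini-Hochberg adjustment (Pttg1 q = 0.0566), with a single fit of 30 pools (limma q = 0.574) and with 1 probe set per gene (limma q = 0.0706), and 0 whichever pool was left out (0 to 0). At d35 the count was 0, and 1 in the single fit of 30 pools (Mcm7). With the replicate number as a block it was also 1, Mcm7 (limma q = 0.0263), and it was 1 at 13.5 d.p.c. and 0 at 17.5 d.p.c. Deviations of pools with the same number correlated at -0.1 to 0.0757 at 13.5 d.p.c., -0.199 to 0.485 at 17.5 d.p.c., where 3 of 5 numbers were at 0.304 or above, and -0.172 to 0.139 at d35. As not every number was over 0.1 at any time point, the samples were not treated as paired. Leaving out single pools gave 0 to 2 genes at d35, 0 to 0 at 17.5 d.p.c. and 0 to 1 in the test between time points. The cause of these changes was not tested. Over all probe sets the count at 13.5 d.p.c. was 243 and between 0 and 347 under other settings, or 1 to 479 without single pools. At d35 it was 2062, and 1324 to 2391 or 777 to 2003. Genes whose percentile fell numbered 23 to 33 for 17.5 against 13.5 d.p.c., 34 to 36 for d35 against 17.5 d.p.c. and 33 to 36 for d35 against 13.5 d.p.c. under all alternatives run.

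Each group held 5 pools of 3 animals, and a difference that missed the threshold is not shown to be absent. How far signals stood above background was not measured, which bears most on the genes low on the array at d35, such as Cdc6, Bub1, Ccne2 and Aurkb.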
